A study of Mus musculus with 4 samples.

Results

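Notch receptors, their ligands and the Fringe enzymes were followed as a group of 10 genes in cochlear ducts of *Sox2-Tbx2LOF* embryos at E14.5. The group holds the receptors *Notch1*, *Notch2* and *Notch3*, the ligands *Jag1*, *Jag2*, *Dll1* and *Dll3*, and the Fringes *Lfng*, *Mfng* and *Rfng*. Its members were picked by gene symbol among 29924 gene names on the arrays, with earlier results of these data known. All 10 were detected and tested among 21042 genes, with 15 of their 16 probes. *Sox2-Tbx2LOF* embryos carry *creERT2* at one *Sox2* locus and a homozygous *loxP*-flanked *Tbx2* (*Sox2(creERT2);Tbx2(fl/fl)*). Control embryos carry a floxed *Tbx2* allele, with the second allele not determined according to the labels (*Tbx2(fl/n.d.)*), and lack Cre according to the methods. All embryos came from NMRI dams that received 4 mg tamoxifen by mouth at E12.5, so the controls shared the tamoxifen. Each of 4 two-colour arrays compared 1 mutant with 1 control pool of 23 to 27 ducts, female on arrays 1 and 2 and male on arrays 3 and 4, with the mutant in Cy5 on arrays 1 and 3 and in Cy3 on arrays 2 and 4.

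CreERT2 at *Sox2* recombines in SOX2+ cells, the prosensory progenitors of the cochlear floor and other SOX2+ cells, and the insertion removes one working *Sox2* copy. The spiral ganglion had been dissected away, but the ducts were used whole, so cells of the roof, mesenchyme and vessels contributed RNA. In such bulk tissue, fewer cells of a type and less RNA per cell cannot be told apart. The median spot had a Cy3 intensity of 263 to 292 over a local background of 25, and a Cy5 intensity of 496 to 563 over one of 85 to 95. The number of arrays limits the precision. All pools were hybridised on a single slide. The targeted gene, *Tbx2*, was lower in the mutant on all 4 arrays, by 0.12 ± 0.098 on the log2 scale (mean ± SD, n = 4), and did not pass the test (adjusted p = 0.12, limma). The position of its probe relative to the floxed exons is not known here, so the probe may not check the deletion. *Sox2*, the marker of prosensory cells, had a log2 ratio of 0.012 ± 0.18 (adjusted p = 0.93, limma).

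Notch signalling passes between touching cells. A ligand of the Jagged or Delta family on one cell binds a Notch receptor on its neighbour, proteases then cut the receptor, and its intracellular part joins the DNA-binding protein RBPJ in the nucleus to switch on targets such as the *Hes* and *Hey* repressor genes. Fringes add a sugar to the receptor's extracellular part inside the Golgi and thereby shift its response between Delta and Jagged ligands. In the cochlea, JAG1 marks and maintains the prosensory domain at early stages, and later Delta and Jagged ligands on nascent hair cells keep their neighbours from the hair cell fate.

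Among the 10 genes, 3 were lower in *Sox2-Tbx2LOF* ducts and none was higher at an adjusted p below 0.05. These were the Fringe *Lfng*, lower by 0.52 ± 0.069 on the log2 scale or 1.44-fold, and the ligands *Jag1* and *Jag2*, each lower by 0.19 or 1.14-fold. Among all 21042 genes 5.18% passed this threshold, 2.92% as lower and 2.26% as higher. None of the 10 also reached a 1.5-fold change, as 0.442% of all genes did. *Lfng* lay just short of it, and just past it with Agilent's processed signals (log2 ratio -0.59) and in the authors' series table (-0.60). The median log2 ratio of the 10 genes was 0.043, with a range from -0.52 to 0.23, against a median of 0.0024 over all genes. On all 4 arrays, 5 of the 10 moved in a single direction, which 18.2% of all genes did. These were *Lfng*, *Jag1* and *Jag2*, which were lower, and *Notch1* and *Mfng*, for which the ratio was above 0.

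**Figure D1:**
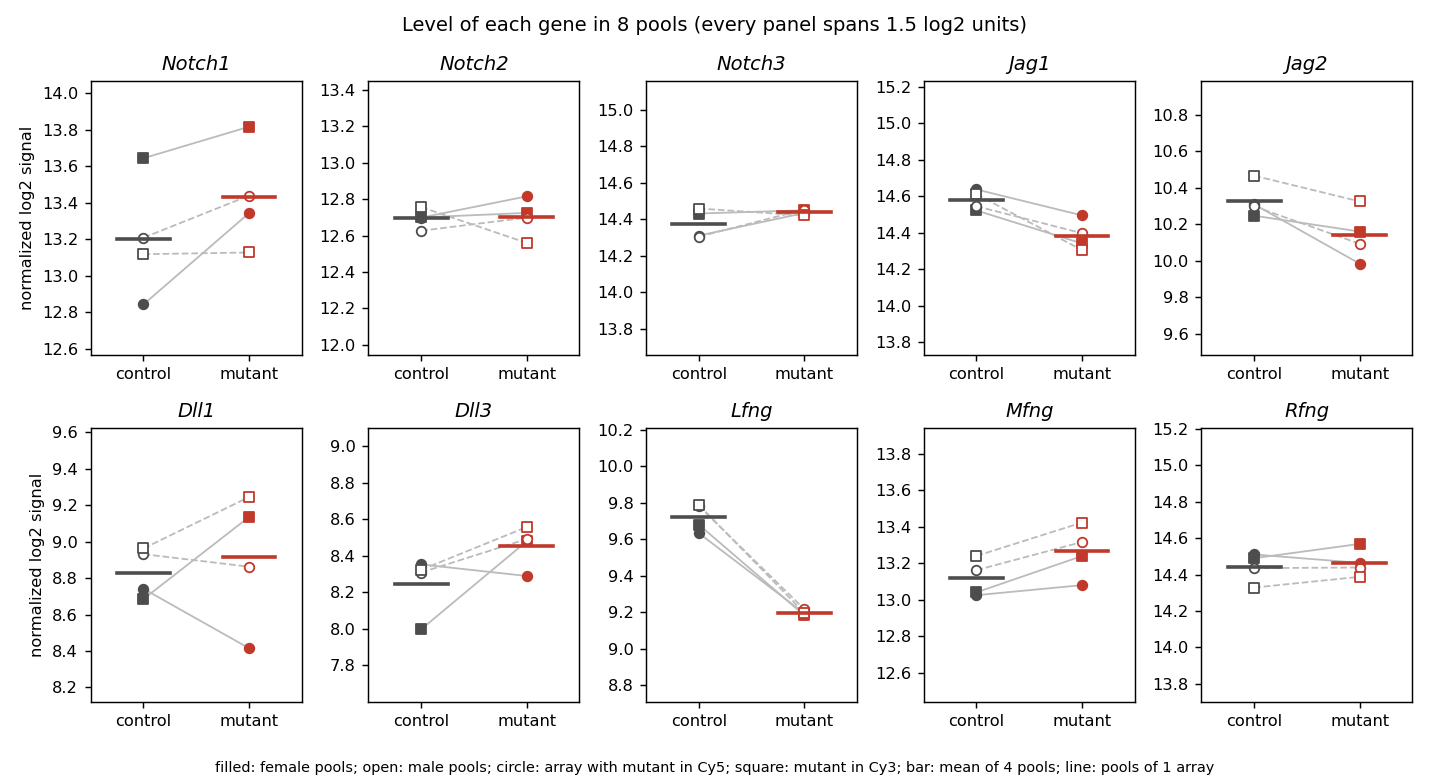
Levels of the 10 genes (normalized log2 signal of the brightest tested probe) in 4 control and 4 *Sox2-Tbx2LOF* pools. Points are pools, lines join the pools of an array, bars are means, filled symbols are female and open symbols male pools, and each panel spans 1.5 log2 units. For *Lfng* all 4 mutant pools lie between 9.18 and 9.22, below the 4 control pools at 9.63 to 9.79.

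Levels are given below on the normalized log2 scale of the separate channels, in the order of arrays 1 to 4. Because each probe has its own brightness, levels compare pools and not genes. Coordinates of probes are those of the files (mm9). Exon or UTR positions were not assigned, since no annotation of that build was used here.

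*Lfng*, the Fringe that is expressed in the prosensory region and its medial neighbourhood, gave the clearest difference. Its only probe (chr5:141091224-141091283, plus strand) read 9.63, 9.68, 9.78 and 9.79 in the control pools and 9.19, 9.18, 9.22 and 9.20 in the mutant pools. Every mutant pool lay below every control pool. Between pools, the SD was 0.077 in controls and 0.014 in mutants, while the 4 spots of the probe on an array had an SD of 0.063 to 0.099. The log2 ratios on the 4 arrays were -0.44, -0.50, -0.57 and -0.59, with a mean of -0.52 (limma SE 0.039, 95% interval -0.61 to -0.43, adjusted p = 0.00031). *Lfng* kept its call under each of the 15 alternatives of processing and sample choice, with a mean between -0.60 and -0.49 and an adjusted p between 3.8e-06 and 0.012. Not all of them could move it. Separate channels with the array as a replicate block repeat the reported fit by construction. The filters on dim probes and the mean over probes leave the ratio of a gene with a single tested probe unchanged. Of the 10 genes, *Lfng* and *Jag1* had mutant and control levels that did not overlap, and 4.27% of all genes tested showed this.

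The other Fringes did not pass the test. *Mfng*, also a glycosyltransferase of the receptors, read 13.03, 13.04, 13.16 and 13.24 in controls and 13.08, 13.24, 13.32 and 13.42 in mutants at its brighter probe (chr15:78586332-78586391, minus strand). The groups overlapped, although the mutant pool was the higher one on each array. The mean log2 ratio was 0.15 ± 0.065 (95% interval 0.065 to 0.23, adjusted p = 0.060, limma). The dimmer *Mfng* probe (chr15:78586430-78586489) gave 12.33, 12.27, 12.34 and 12.36 in controls and 12.41, 12.48, 12.45 and 12.57 in mutants, with no overlap and the same mean of 0.15 ± 0.065. Tested on its own it had an adjusted p of 0.057 over the 27963 probes tested, of which 3.99% passed, and with both probes averaged *Mfng* passed (adjusted p = 0.043, limma). *Rfng*, the third Fringe, read 14.51, 14.49, 14.44 and 14.33 in controls and 14.46, 14.57, 14.44 and 14.39 in mutants (chr11:120642060-120642119, minus strand). Its groups overlapped and the ratio was 0.024 ± 0.056, with an interval from -0.055 to 0.10 (adjusted p = 0.76). The other *Rfng* probe (chr11:120643797-120643856) gave -0.0076 ± 0.14.

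*Jag1*, the ligand of the prosensory domain, was slightly lower. Its probe (chr2:136907433-136907492, minus strand) read 14.64, 14.52, 14.54 and 14.61 in controls and 14.49, 14.34, 14.40 and 14.30 in mutants. The highest mutant pool fell just short of the lowest control pool. The log2 ratios were -0.14, -0.18, -0.15 and -0.31, with a mean of -0.19 ± 0.077 (limma SE 0.037, 95% interval -0.28 to -0.11, adjusted p = 0.028). *Jag2*, a ligand that nascent hair cells carry, read 10.31, 10.25, 10.30 and 10.47 in controls and 9.98, 10.16, 10.09 and 10.32 in mutants (chr12:114146887-114146946, minus strand). Its groups overlapped because both pools of array 4 were the brightest of their genotype. Within arrays the ratios were -0.33, -0.087, -0.21 and -0.14, with a mean of -0.19 ± 0.10 (limma SE 0.037, 95% interval -0.28 to -0.10, adjusted p = 0.031). Both Jagged calls were lost under 7 of the 15 alternatives, among them Agilent's own processed signals, the fit without a dye term, and leaving out array 1, 3 or 4. In those 7 settings the adjusted p lay between 0.087 and 0.21 for *Jag1* and between 0.077 and 0.54 for *Jag2*, and the mean stayed below 0.

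The Delta ligands *Dll1* and *Dll3* did not pass. *Dll1*, the Delta ligand of differentiating hair cells and neuroblasts, read 8.74, 8.68, 8.93 and 8.96 in controls and 8.42, 9.13, 8.86 and 9.24 in mutants (chr17:15504623-15504682, minus strand). Its log2 ratio was -0.33 and -0.069 on the arrays with the mutant in Cy5, and 0.45 and 0.28 on those with the mutant in Cy3. The sign thus followed the dye, with a fitted dye effect of -0.28 (Cy5 over Cy3), and the mean over the swapped pairs was 0.084 with an interval from -0.035 to 0.20 (adjusted p = 0.42). A further *Dll1* probe (chr17:15513726-15513785) was not well above background in any pool and was not tested.

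*Dll3*, a divergent Delta protein that does not activate receptors in trans, was measured by a pair of probes. The brighter one (chr7:29078763-29078822, minus strand) read 8.35, 7.997, 8.31 and 8.32 in controls and 8.29, 8.48, 8.49 and 8.56 in mutants. The groups overlapped at array 1, where the mutant pool was the lower one. Its ratios were -0.064, 0.48, 0.18 and 0.23, with a mean of 0.21 ± 0.22 (95% interval 0.080 to 0.34, adjusted p = 0.079, limma). The dimmer probe (chr7:29079061-29079120) gave ratios of 0.034, 0.18, 0.25 and 0.13, all above 0, with a mean of 0.15 ± 0.089 (adjusted p = 0.12 over all probes tested). The sequence of the dimmer probe is shown because it reported the more even ratios of the pair.
Dll3 dimmer probe, 60 bases, 5′ to 3′: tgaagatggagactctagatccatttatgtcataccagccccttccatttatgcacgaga

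Of the receptors, none passed. *Notch1*, the receptor through which hair cells restrain their neighbours, read 12.84, 13.65, 13.21 and 13.12 in controls and 13.34, 13.82, 13.44 and 13.13 in mutants at its bright probe (chr2:26319440-26319499, minus strand). Levels ranged more widely within each genotype (SD 0.33 and 0.29) than between the means, while on each array the mutant pool was the higher one. The ratios were 0.50, 0.17, 0.23 and 0.0096, with a mean of 0.23 ± 0.20 (limma SE 0.052, 95% interval 0.11 to 0.35, adjusted p = 0.051). The dimmer *Notch1* probe (chr2:26314630-26314689) read 8.91, 8.69, 8.72 and 8.74 in controls and 8.85, 8.75, 8.59 and 8.81 in mutants. Its ratios of -0.061, 0.060, -0.13 and 0.064 lay on both sides of 0 (mean -0.017 ± 0.096, adjusted p = 0.85 over all probes tested). The *Notch1* probes thus differed, and the gene's value rests on the bright one, whose sequence follows.
Notch1 bright probe, 60 bases, 5′ to 3′: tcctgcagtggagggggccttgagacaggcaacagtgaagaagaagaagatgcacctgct

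*Notch2*, a receptor of broad expression, read 12.70, 12.70, 12.63 and 12.76 in controls and 12.81, 12.72, 12.70 and 12.56 in mutants (chr3:97953914-97953973, plus strand). The groups overlapped fully and the mean log2 ratio was 0.0041 ± 0.14, with an interval from -0.098 to 0.11 (adjusted p = 0.97). The other *Notch2* probe (chr3:97951233-97951292) gave -0.029 ± 0.14. *Notch3*, known best from the mural cells of vessels, read 14.31, 14.43, 14.30 and 14.46 in controls and 14.43, 14.45, 14.45 and 14.42 in mutants (chr17:32257848-32257907, minus strand). Its groups overlapped, and the ratio was 0.063 ± 0.088, with an interval from -0.016 to 0.14 (adjusted p = 0.36). These intervals include 0 and do not reach the size of the *Lfng* change in either direction.

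**Figure D2:**
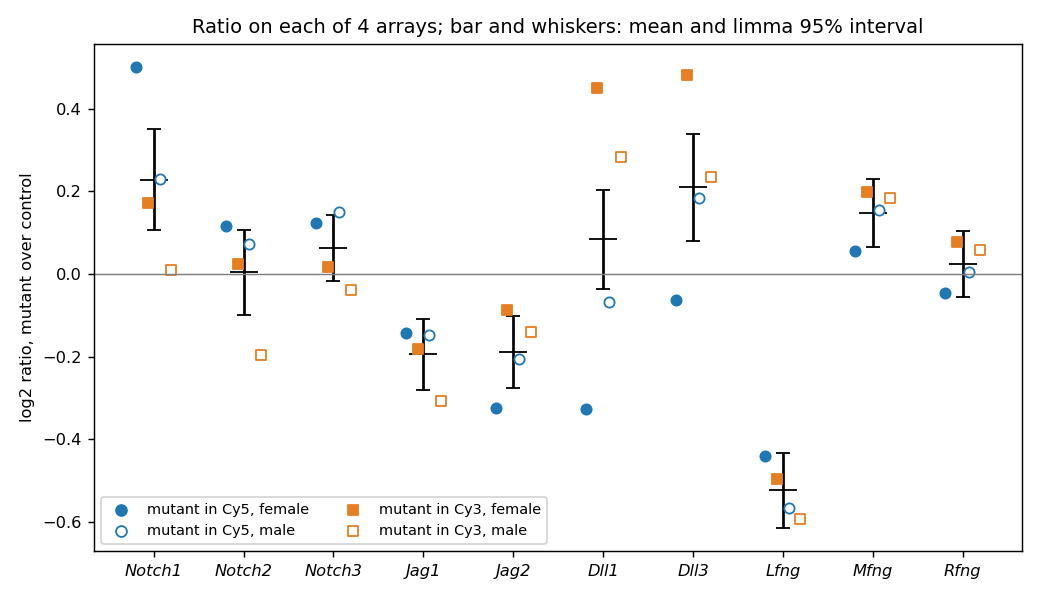
Log2 ratio of mutant over control for the 10 genes on each of 4 arrays. Symbols give the dye and sex of each array, and the horizontal tick and whiskers are the mean and the 95% interval of limma. *Lfng* lies lowest at -0.44 to -0.59, and *Dll1* changes sign with the dye.

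Female and male ducts were compared by the interaction of genotype and sex. The female and male means were -0.47 and -0.58 for *Lfng*, -0.16 and -0.23 for *Jag1*, and -0.21 and -0.17 for *Jag2*. None of the 10 genes passed, and none of the 21042 genes did, with 1 residual degree of freedom (limma, adjusted p of 1.0 for all 10 genes). With median centring in place of loess, 19 of all genes and none of the 10 passed. Before adjustment, 1 of the 10 and 558 of all genes lay below 0.05 in limma. The 1 was *Notch1*, with a mean of 0.34 in females and 0.12 in males.

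The genes that respond to the receptors or process them were examined as a list of 43 other Notch pathway genes. Of these, 2 were lower, 1 was higher and 40 did not pass, or 6.98% against 5.18% of all genes, with a median log2 ratio of 0.0079. Both directions occurred among the 6 target genes. *Hes5*, a repressor switched on by Notch in many progenitors, was 1.93-fold lower. It read 10.49, 10.53, 10.95 and 11.10 in controls and 9.14, 10.07, 10.04 and 10.03 in mutants (chr4:154336347-154336406). The groups did not overlap, and array 1 held the lowest mutant pool. Its ratios were -1.35, -0.45, -0.91 and -1.07, with a mean of -0.95 ± 0.38 (limma SE 0.10, adjusted p = 0.0020). *Hey2*, a repressor of prosensory and later pillar cells, was 1.28-fold higher, with 11.52, 11.64, 11.45 and 11.50 in controls and 11.91, 11.97, 11.82 and 11.83 in mutants (chr10:30552729-30552788). These groups did not overlap either, and the ratios of 0.39, 0.33, 0.38 and 0.33 gave a mean of 0.36 ± 0.033 (limma SE 0.033, adjusted p = 0.00097). *Hey2* kept its call under all 15 alternatives, and *Hes5* under 14 of them. Without array 1 the log2 ratio of *Hes5* was -0.83 (adjusted p = 0.047, limma).

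The other targets lay nearer to 0. *Hes1* had a log2 ratio of 0.19 ± 0.11 (adjusted p = 0.062, limma) and was above 0 on all 4 arrays. The feedback inhibitor *Nrarp* had -0.15 ± 0.20 (adjusted p = 0.099). *Hey1* had -0.076 ± 0.15 (adjusted p = 0.27) and *Heyl* -0.045 ± 0.28 (adjusted p = 0.69), each with 2 arrays on either side of 0. Among the 5 other receptors and ligands, *Dner*, a transmembrane protein of neurons with Delta-like repeats, was lower by 0.29 ± 0.18 (adjusted p = 0.036, limma) and lost its call under 7 of the 15 alternatives. *Notch4* and *Dll4*, both best known from endothelium, had ratios of -0.022 ± 0.15 and -0.012 ± 0.14. None passed among the 11 genes of receptor processing (such as *Adam10*, *Ncstn* and *Pofut1*), the 4 of ligand endocytosis (*Mib1* and others), the 9 of the nuclear complex (*Rbpj*, *Maml1* to *Maml3* and others) and the 8 of turnover and inhibition (such as *Numb* and *Itch*). The ratios in these classes ran from -0.16 for *Snw1*, a nuclear cofactor, to 0.18 for *Aph1b*, a subunit of gamma-secretase.

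**Figure D3:**
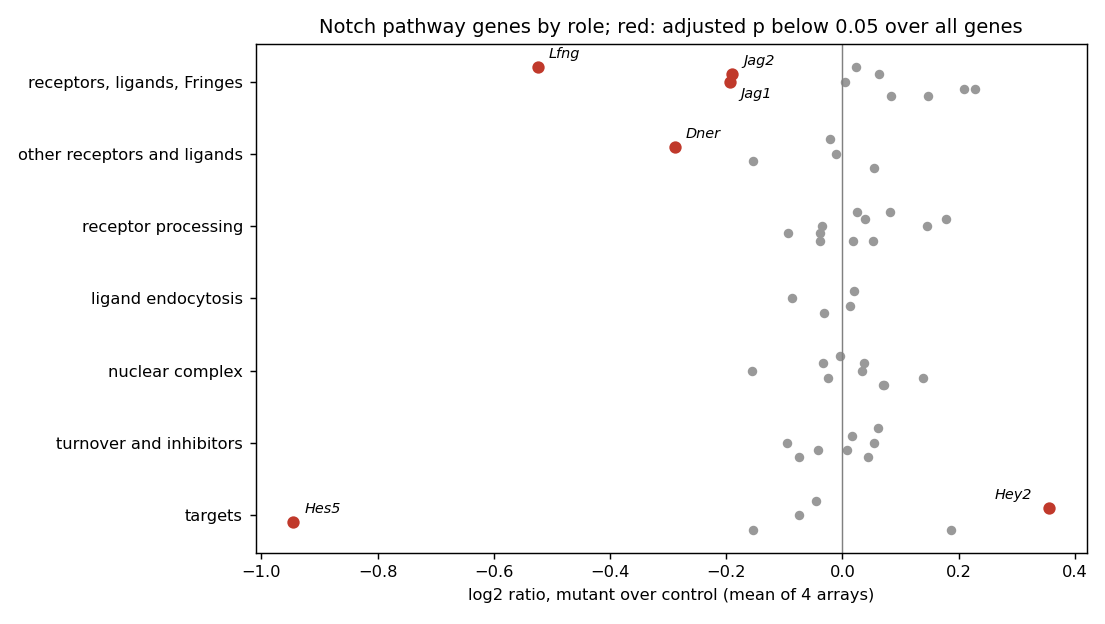
Mean log2 ratio of mutant over control (x axis) for the 10 genes and 43 other Notch pathway genes, arranged by role (y axis). Each point is a gene, and red marks an adjusted p below 0.05 over all genes tested. *Lfng*, *Jag1*, *Jag2*, *Dner* and *Hes5* lie to the left and *Hey2* to the right.

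Promoters were read for motifs because *Lfng*, *Hes5* and *Hey2* were the pathway genes with the steadiest calls. RefSeq promoters (GRCm38.p6, 250 bases before to 50 after a transcription start) were matched by symbol for 9 of the 10 genes. *Mfng* was not matched, and *Dll1* had 2 start sites. Both strands were searched for TGGGAA, the core bound by RBPJ, and GGTGTGA, the core bound by T-box factors such as TBX2. Of all 32851 promoters, 25.6% held the first and 3.98% the second. Among the 10 windows of the Notch genes, only that of *Lfng* held TGGGAA, against 25.6% of all promoters. Its matches lay at positions -135 on the minus strand and -108 on the plus strand relative to the start. *Hes5* held it at -226 on the minus and -82 on the plus strand, and *Hey2* at -207 on the minus and -3 on the plus strand. The *Nrarp* window held neither motif, *Hes1*, *Hey1* and *Heyl* were not matched, and GGTGTGA was found in none of these windows. A match describes letters and not binding. The share of all promoters with 2 matches was not computed, and a link of the motif to the calls was not tested. The windows of the 10 genes had a median GC content of 67.5%, between 52.0% and 86.0%, against a median of 52.7% over all promoters. The 3 windows are printed below on the strand of the gene, with both orientations of TGGGAA in capitals.
Lfng promoter, chr5:140607091-140607390, plus strand: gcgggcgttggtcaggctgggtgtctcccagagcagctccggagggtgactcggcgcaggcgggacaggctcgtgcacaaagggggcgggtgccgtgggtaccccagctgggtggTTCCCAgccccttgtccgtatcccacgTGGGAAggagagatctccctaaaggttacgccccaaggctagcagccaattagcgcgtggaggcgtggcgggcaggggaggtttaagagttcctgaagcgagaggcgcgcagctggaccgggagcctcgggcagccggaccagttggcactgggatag
Hes5 promoter, chr4:154960673-154960972, plus strand: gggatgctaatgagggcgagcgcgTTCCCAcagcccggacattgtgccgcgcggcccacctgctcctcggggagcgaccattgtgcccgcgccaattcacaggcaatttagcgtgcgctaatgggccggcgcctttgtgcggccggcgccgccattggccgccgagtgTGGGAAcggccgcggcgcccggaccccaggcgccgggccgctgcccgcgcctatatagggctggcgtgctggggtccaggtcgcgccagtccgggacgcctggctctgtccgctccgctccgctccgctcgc
Hey2 promoter, chr10:30842734-30843033, minus strand: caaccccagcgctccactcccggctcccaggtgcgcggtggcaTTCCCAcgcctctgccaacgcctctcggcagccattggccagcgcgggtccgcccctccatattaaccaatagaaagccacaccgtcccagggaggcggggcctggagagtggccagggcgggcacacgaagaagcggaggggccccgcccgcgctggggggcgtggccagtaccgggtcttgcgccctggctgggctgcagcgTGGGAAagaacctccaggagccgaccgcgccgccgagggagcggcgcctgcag

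Markers of the cell types in the ducts were read beside these values, since some of them moved with *Lfng* and *Hes5*. Of 50 marker genes tested, 6 were higher and 6 lower, or 24% against 5.18% of all genes. The markers were chosen with earlier results of these data known. Of the 7 neuronal markers tested, 4 were lower, among them *Elavl3* by 1.08 ± 0.36, *Stmn2* by 0.41 ± 0.089 and *Tubb3* by 0.39 ± 0.063 on the log2 scale, while *Isl1* was higher by 0.20 ± 0.16. The mean level of these 7 lay between 10.41 and 10.72 in control and between 10.19 and 10.31 in mutant pools, and *Neurod1* was too dim to be tested. Of 6 glial markers, *Foxd3* was lower by 1.17 ± 0.22, with a mean level of 11.93 to 12.07 in controls and 11.78 to 11.88 in mutants. The median log2 ratio of the 6 was -0.038, and that of the 7 neuronal markers was -0.36. Of 4 prosensory markers, *Fgf20* was lower by 0.54 ± 0.15, with a mean level of 11.70 to 11.73 in controls and 11.51 to 11.63 in mutants. The lower prosensory mean rested mostly on *Fgf20*, since *Sox2* (0.012), *Cdkn1b* (-0.081) and *Prox1* (-0.039) did not pass and the median log2 ratio of the 4 was -0.060. The part of neuronal, glial and prosensory cells in the lower *Lfng*, *Jag1*, *Jag2* and *Hes5* was not tested.

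The other classes held 1 marker that passed or none. Hair cell markers, at 9.12 to 9.32 in controls and 8.997 to 9.38 in mutants, overlapped in their mean level, and *Myo7a* was higher by 0.17 ± 0.043, a call lost under 9 of the 15 alternatives. Mesenchymal markers overlapped as well (12.10 to 12.44 and 12.21 to 12.53), with *Col1a1* higher by 0.27 ± 0.12. The calls of *Col1a1* and *Gata3* were lost under 2 and 4 of the 15. Cochlear epithelial markers, which include *Gata3* with a rise of 0.34 ± 0.13, read 15.43 to 15.64 and 15.58 to 15.69. Endothelial markers read 11.76 to 11.86 in controls and 11.84 to 11.95 in mutants, with *Esam* higher by 0.16 ± 0.066, a call lost under 10 of the 15. None of the 4 blood, 4 macrophage and 4 melanocyte markers passed.

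**Figure D4:**
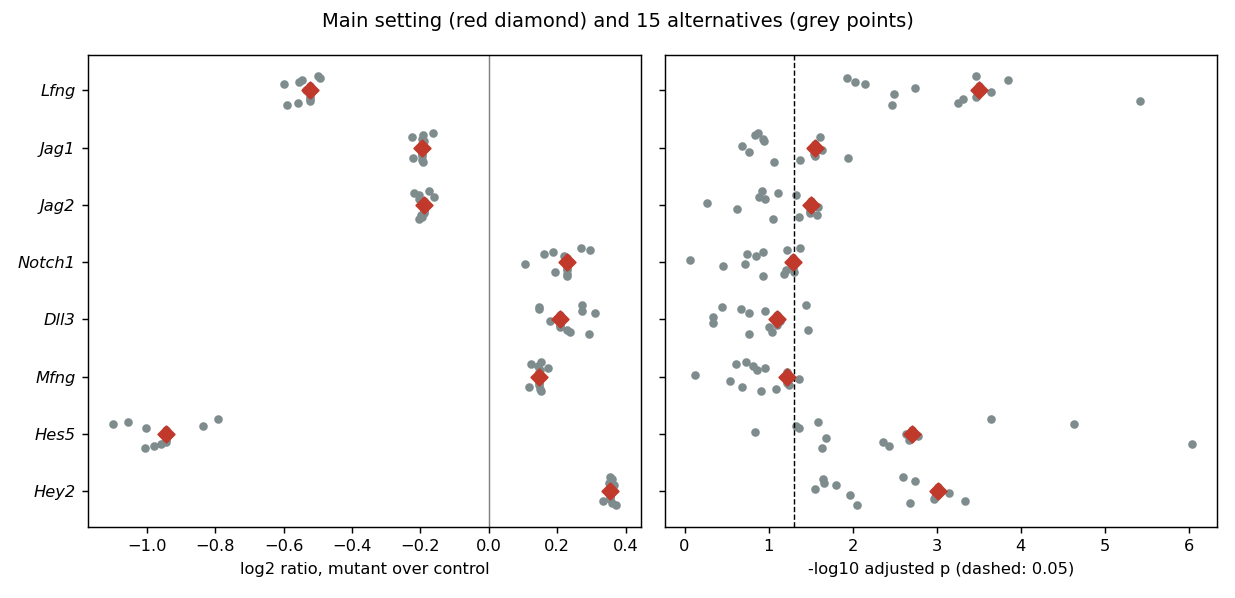
Log2 ratio of mutant over control (left) and -log10 adjusted p (right) under the reported setting (red diamond) and 15 alternatives (grey points) for 6 of the genes and for *Hes5* and *Hey2*. The dashed line marks an adjusted p of 0.05. *Lfng* and *Hey2* stay to its right in every setting, and *Jag1* and *Jag2* fall on both sides.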

How the data were processed

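RNA of *Sox2-Tbx2LOF* and control ducts was labelled and hybridised pairwise to 4 Agilent arrays. The authors deposited the output of Agilent Feature Extraction (version 10.7.3.1) for each array, from which the mean spot intensity and median background intensity of both dyes were used, neither normalized. Agilent's processed intensity, also deposited, and the authors' series table, a score per probe that matches a signed fold change of unstated normalization (r across probes with the ratios computed here 0.882 to 0.913), served as alternatives. The sample labels gave genotype, sex and dye of each pool, and the methods gave stage, treatment and pool sizes.

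Background was corrected with normexp (offset 50) and ratios were normalized by loess within arrays in limma 3.58.1 and R 4.3.3. Control spots and spots with an outlier flag (8.29% to 8.56%) were left out and the other spots of a probe averaged. A probe was tested where at least 4 of its 8 measurements stood well above background (27963 of 39429 probes), and the brightest stood for its gene. Levels are the separate channels after loess and Aquantile. limma was fitted with genotype and dye terms (2 residual and 5.65 prior degrees of freedom), with Benjamini-Hochberg adjustment over 21042 genes. The 2 pools of an array are paired by their shared hybridisation. The fits were tested on simulated data, where 30% of changes of 0.3 and 70% of changes of 0.5 on the log2 scale were recovered. A real change of such a size can thus stay without a call.

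All probes of the 10 genes are named. Of the pathway and marker lists, genes with an adjusted p below 0.05 are named (the 3 largest per class where more passed), and *Hes1*, *Hes5*, *Hey1*, *Hey2*, *Heyl* and *Nrarp* in any case. Other genes stand as examples of a class, and 1 marker that passed is not reported here. The pathway and marker lists, like the members, were chosen with earlier results of these data known. Alternatives varied background, normalization, filters, dye term, pairing, probe choice and arrays.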

Additional observations from a re-analysis of the deposited data

Results flagged for a closer look

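The control level of *Dll3* on array 2 stood apart from the other control pools at the brighter probe. It was 7.997 on the normalized log2 scale, against 8.31 to 8.35 in the other 3, and its gap made up 0.875 of the range of the group (Dixon's test at the 95% level). Of 30 groups of 4 values examined in this way it was the only one, and chance alone marks about 1 in 20. The mutant levels of *Hes5*, with 9.14 on array 1 against 10.03 to 10.07 on the others, were not among these groups. Without array 2 the log2 ratio of *Dll3* was 0.15 (adjusted p = 0.22, limma), against 0.21 with all arrays.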

How the results depend on the processing

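Of the genes recomputed under the alternatives, which do not include the markers *Isl1* and *Elavl4*, none that passed the test changed sign. Among those that did not pass, *Notch2*, *Rfng*, *Heyl*, *Sox2* and *Notch1* (at its other probe) changed sign under some settings, at values between -0.073 and 0.028. Of the 10 genes, 3 passed, and 1 (*Lfng*) passed with Agilent's processed signals, without the dye term, with separate channels unpaired, and with the authors' series table. With median centring 4 passed, as *Dll3* was added (0.23, adjusted p = 0.034, limma), and with the mean over tested probes 4, as *Mfng* was added. Leaving out an array gave 1 to 3 (1 without array 1 and 1 without array 3). Without array 4 the 3 were *Lfng*, *Notch1* (adjusted p = 0.042, limma) and *Dll3* (adjusted p = 0.036). Of the 43 other pathway genes, 3 passed, and 1 (*Hey2*) passed unpaired, where *Hes5* had an adjusted p of 0.14. Leaving out an array gave 2 to 4. By construction, the separate channels with the array as a replicate block gave the reported values again (3 of the 10, *Lfng* at -0.52). Without this pairing 217 genes in all passed, against 1091 with it. Over all genes, 616 passed with Agilent's processed signals, 264 without the dye term, 414 with the series table, and 411, 445 and 695 without arrays 1, 3 and 4, but 1278 without array 2, 1177 with median centring and 1139 with the mean over tested probes. Of single-gene results under alternatives, 371 kept their side of the threshold, 60 lost their call and 4 gained one. The 371 include the fits with the array as a replicate block, which could not differ. The other *Notch1* probe moved that gene from 0.23 to -0.017, without a call in either. These marker, *Tbx2* and other-probe alternatives were added after seeing the data. The 4 arrays limit what small changes can pass.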

Other observations

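A ratio whose sign followed the dye was seen not only for *Dll1*. *Neurl1b*, a ubiquitin ligase of Delta endocytosis, had log2 ratios of 0.61 and 0.65 with the mutant in Cy5 and of -0.60 and -0.58 with the mutant in Cy3, and a mean over the swapped pairs of 0.020 (adjusted p = 0.81, limma). *Rbpj* showed the opposite order, with -0.27 on both arrays with the mutant in Cy5, 0.29 and 0.14 on the others, and a mean of -0.025 (adjusted p = 0.78).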
